A study of Macaca mulatta with 12 samples.

Results

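Gene expression in the dorsal raphe nucleus was compared between 3 ovariectomized female rhesus macaques (Macaca mulatta) that carried estrogen implants and 3 ovariectomized females that carried placebo implants. These 6 arrays, of 12 in the series, were taken by their titles, Estrogen E1 to E3 and Placebo OVX1 to OVX3. The comparison itself was chosen with earlier results of these data known. Every monkey had lost its ovaries, so the placebo group stands for a low level of ovarian hormone and not for an intact cycle. Implants were Silastic capsules worn under the skin of the upper back for 1 month, and the dose of estrogen is not given in the sources used here. The other 6 monkeys, 3 with estrogen plus progesterone and 3 with progesterone alone, entered the fit as further estimates of the spread. Each monkey gave 1 array, so the replicates are separate animals and their spread holds animal and array variation together.

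Estrogen acts largely through the nuclear receptors ESR1 and ESR2, which bind the hormone and switch target genes on or off, and through the membrane receptor GPER1. The dorsal raphe nucleus holds serotonin neurons that project to much of the forebrain. These neurons make serotonin with TPH2 and DDC, load it into vesicles with SLC18A2, take it back up with the transporter SLC6A4 and break it down with the monoamine oxidases. The comparison asks which transcripts of this nucleus differ after a month of estrogen replacement.

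The array was an Affymetrix design for human genes that was read with macaque RNA, so levels were not compared between probe sets. A probe set is a group of probes for 1 transcript, and its value is an intensity on a linear scale. Differences are given as log2 changes, estrogen over placebo, on the scale log2(intensity + 8.26), which understates the difference of dim probe sets. Of 12558 probe sets other than controls, the 7535 brightest were tested, and 5499 genes were represented by a probe set with 1 symbol. A difference was called at a limma adjusted p under 0.05. Intensities are given as deposited, for arrays 1, 2 and 3 of a group in that order. Arrays are called separated where every estrogen array lay on the same side of all placebo arrays after normalization.

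Estrogen array 1 stood apart from the other 5 arrays of the comparison. Its 28S ribosomal RNA control read 841, against 64.2 and 68.4 on estrogen arrays 2 and 3 and 70.0 to 90.8 on the placebo arrays. Its ratio of 3′ to 5′ GAPDH signal, a measure of RNA quality, was 2.45, against 1.39 and 1.46 on estrogen arrays 2 and 3 and 1.05 to 1.46 on the placebo arrays. Its ratio for actin was 1.12, against 1.29 and 1.69 on estrogen arrays 2 and 3 and 1.09 to 1.54 with placebo. The actin ratio thus did not set estrogen array 1 apart. On estrogen array 1, 151 tested probe sets lay at least 1 log2 unit above both other estrogen arrays and 408 lay as far below, together 7.42% of those tested. That share was 1.29% on estrogen array 2, 1.58% on estrogen array 3, 3.82% on placebo array 1, 1.41% on placebo array 2 and 1.11% on placebo array 3. Values without estrogen array 1, and for some genes without another single array, are therefore given beside the results. On estrogen plus progesterone array 1 the 28S control was also high, at 1354, as the plot of control probe sets shows.

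**Figure D1:**
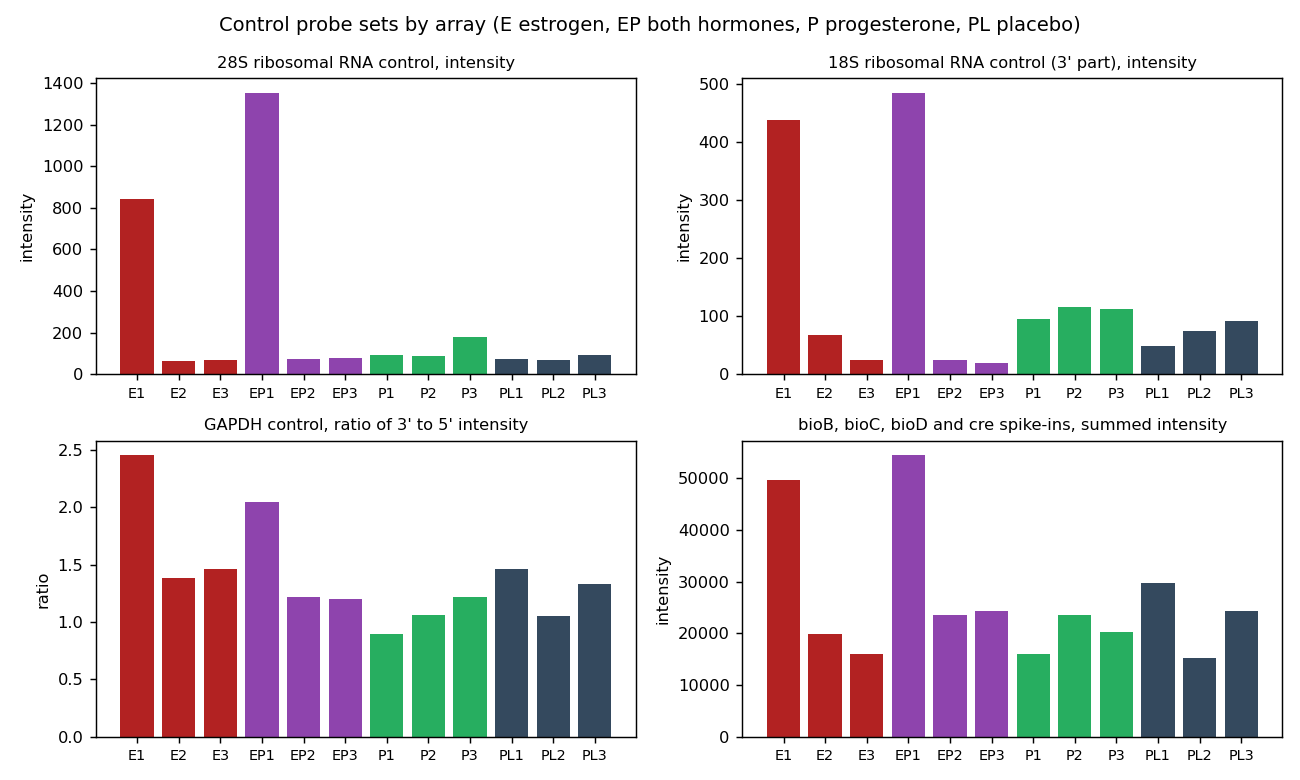
Control probe sets on all 12 arrays: 28S and 18S ribosomal RNA intensity, the ratio of 3′ to 5′ GAPDH intensity, and the summed intensity of the bacterial and phage spike-in controls. Bars are single arrays; estrogen array 1 (E1) reads 841 for 28S, and only estrogen plus progesterone array 1 (EP1) reads as high among the rest.

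No transcript differed between estrogen and placebo past the threshold. The limma fit called 0 of 7535 probe sets (0%), and the lowest adjusted p was 0.571, for the adhesion receptor gene ADGRE5. Without estrogen array 1 the count was again 0 (0%), with a lowest limma adjusted p of 0.416. An unadjusted p under 0.05 was reached by 238 (3.16%), of which 122 were higher (1.62%) and 116 lower (1.54%) with estrogen, and by 430 of 12558 (3.42%) when no filter was set. Without estrogen array 1 it was reached by 281 (3.73%), 144 higher (1.91%) and 137 lower (1.82%). Of the 238, 104 (43.7%) had the same sign and an unadjusted p under 0.05 in both fits. The arrays were separated for 462 probe sets (6.13%), 214 higher (2.84%) and 248 lower (3.29%).

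The size of the differences was set beside the spread between monkeys. The median absolute log2 change was 0.15 with all arrays and 0.17 without estrogen array 1. An absolute log2 change of 1 or more was found for 65 probe sets, of which 35 were separated, and for 81 without estrogen array 1. The median SD within a group was 0.29 log2 units over the 3 estrogen arrays, 0.15 over estrogen arrays 2 and 3, and 0.24 over the placebo arrays. An SD of 2 arrays is not directly comparable with an SD of 3, so the median change was not ranked against them. For 5866 of the tested probe sets (77.9%) the 95% confidence interval of the log2 change lay within 1 unit of 0, which bounds the difference at less than 2-fold on this scale. That held for 2318 of the 2512 brightest tested probe sets (92.3%) and for 1500 of the 2512 dimmest (59.7%), so dim transcripts were measured with the widest error.

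The tissue label was checked against the markers of serotonin neurons. The serotonin transporter SLC6A4 read 361, 388 and 377 with estrogen, against 476, 432 and 396 with placebo, well above the filter on all 6 arrays. FEV, the transcription factor that defines serotonin neurons, read 215, 221 and 177 with estrogen, against 172, 168 and 111 with placebo. TPH1, the tryptophan hydroxylase of peripheral tissues, read at most 3.60 and was too dim to test, and no probe set was named TPH2 or HTR1A. In a bulk sample, fewer cells of a type and less RNA per cell cannot be told apart.

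The serotonin genes did not move together. Of 26 tested genes in the 4 serotonin lists, 13 lay above and 13 below a log2 change of 0, the median was −0.01, and 0 passed the adjusted threshold. Over all tested probe sets, 3706 (49.2%) lay above and 3829 (50.8%) below 0, with a median of −0.0047. Without estrogen array 1, 3789 (50.3%) lay above and 3746 (49.7%) below. The interval lay within 1 log2 unit of 0 for 19 of the 26, which bounds them at less than 2-fold on this scale. MAOA was the 1 gene of the 26 with an unadjusted p under 0.05.

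MAOA encodes monoamine oxidase A, which breaks down serotonin and noradrenaline. Its brighter tested probe set read 402, 559 and 799 with estrogen, against 287, 439 and 253 with placebo. Estrogen arrays 2 and 3 lay above every placebo array, while estrogen array 1 lay below placebo array 2. The log2 change was 0.80 (95% interval 0.23 to 1.37; limma adjusted p = 1.0), and 1.03 without estrogen array 1. A second tested MAOA probe set read 95.01, 136 and 111 with estrogen, against 96.0, 141 and 117 with placebo, and gave −0.07. The probe sets of the gene therefore did not show the same difference. MAOB, the other monoamine oxidase, gave −0.14, and ALDH2, the aldehyde dehydrogenase that clears the product, gave −0.26.

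For the enzymes that make serotonin and their cofactor, the log2 changes were 0.03 for DDC, 0.01 for GCH1, 0.23 for PTS, 0.05 for QDPR, −0.10 for PCBD1 and −0.05 for the vesicle transporter SLC18A2. SPR, which makes the cofactor tetrahydrobiopterin, read 34.8, 89.0 and 178 with estrogen, against 196, 38.8 and 30.1 with placebo, so its change of 0.28 had an interval of −1.30 to 1.86, and was 0.90 without estrogen array 1 and 1.04 without placebo array 1. Without estrogen array 1 all 7 genes of synthesis and storage lay above 0, with a median of 0.30, and without placebo array 3 all 7 lay below 0, with a median of −0.07. The direction of that list therefore depended on single arrays. SLC6A4 was separated, with all estrogen arrays below all placebo arrays, but its change was −0.19 (interval −0.75 to 0.36) and −0.17 without estrogen array 1.

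Among the serotonin receptors, 4 of 8 lay above and 4 below 0. HTR3A, the ion channel subunit of the family, was the only separated receptor. It read 53.3, 48.5 and 49.7 with estrogen, against 95.9, 66.9 and 97.5 with placebo, a change of −0.70 (interval −1.58 to 0.18) and −0.66 without estrogen array 1. HTR7 read 250, 214 and 324 with estrogen, against 287, 621 and 261 with placebo, a change of −0.48, and −0.09 without placebo array 2. HTR6 gave 0.45 with estrogen array 1, which read 557, and 0.01 without it. By their brightest tested probe sets, the changes of HTR1B, HTR1E, HTR2A, HTR2C and HTR4 lay between −0.21 and 0.09. A second tested HTR4 probe set gave 0.41 (interval −0.86 to 1.68) and 0.20 without estrogen array 1.

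Of the transcription factors that specify serotonin neurons, FEV was separated on the higher side, with a change of 0.43 (interval −0.34 to 1.20) and 0.41 without estrogen array 1. The others gave −0.05 for GATA2, −0.20 for GATA3, 0.20 for LMX1B, −0.24 for NKX2-2, −0.05 for INSM1 and 0.03 for EN2. None of them was separated with all arrays. Without estrogen array 1 the values were −0.41 for GATA2, −0.07 for GATA3, −0.15 for LMX1B, −0.19 for NKX2-2, 0.36 for INSM1 and −0.29 for EN2, and INSM1 was then separated on the higher side. LMX1B, which maintains the serotonin phenotype, ranged from 86.8 to 257 among the estrogen arrays alone, wider than the distance between the groups.

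**Figure D2:**
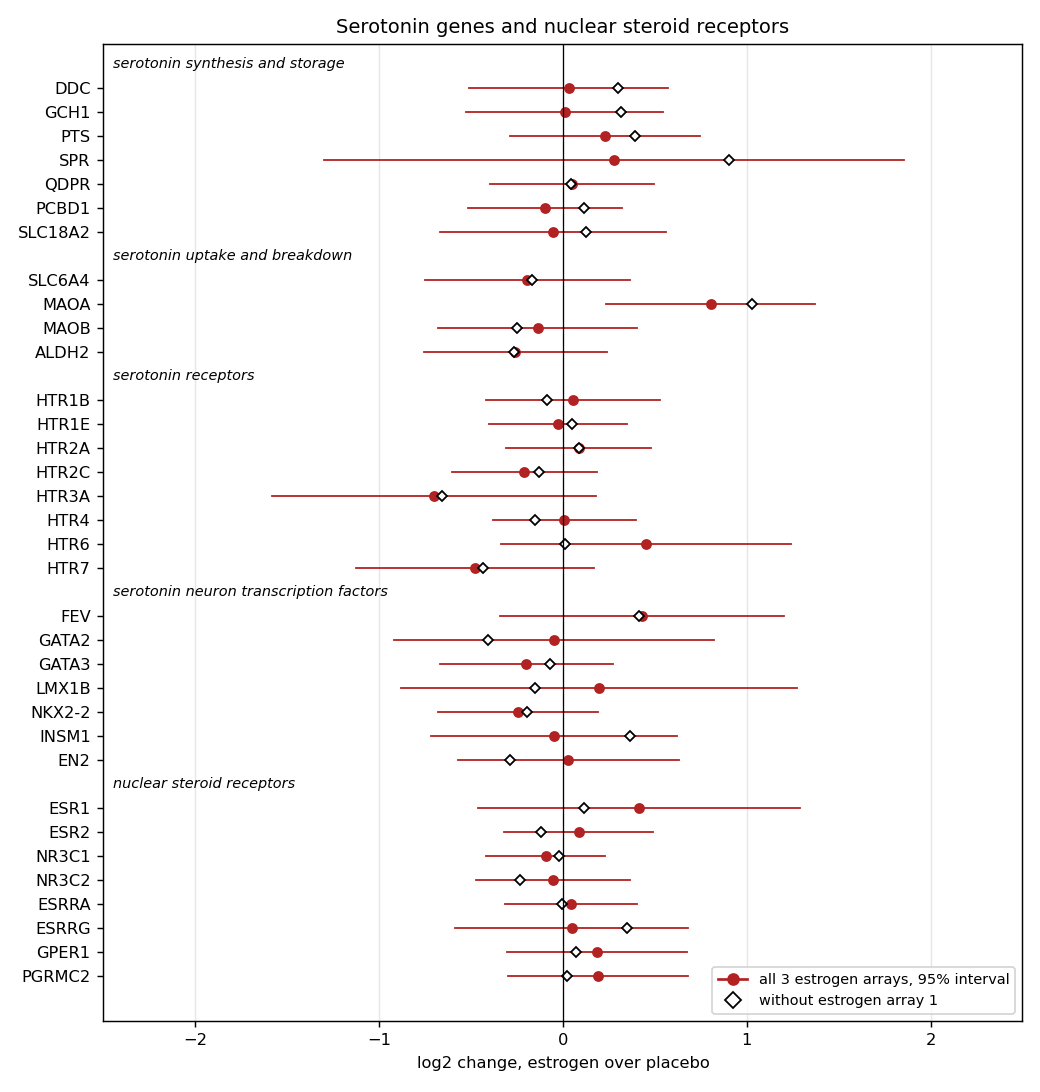
Log2 changes, estrogen over placebo, of the 26 serotonin genes and 8 nuclear steroid receptors tested. Red points are the fit of all arrays with 95% confidence intervals, open diamonds the change without estrogen array 1; the interval of MAOA, at 0.80, is the only one that leaves out 0.

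No receptor of estrogen differed past the threshold. The brighter tested probe set of ESR1, the classical estrogen receptor alpha, read 399, 201 and 223 with estrogen, against 82.3, 322 and 273 with placebo. Its change was 0.41, 0.12 without estrogen array 1 and −0.14 without placebo array 1. A second ESR1 probe set read 278, 137 and 139 with estrogen, against 157, 212 and 199 with placebo, and gave −0.10. This probe set gave −0.40 and was separated on the lower side without estrogen array 1. The brighter tested probe set of ESR2, estrogen receptor beta, read 289, 178 and 184 with estrogen, against 179, 213 and 210.2 with placebo. It gave a change of 0.09 (interval −0.32 to 0.49) and −0.12 without estrogen array 1. A second tested ESR2 probe set read 94.8, 36.0 and 48.6 with estrogen, against 17.7, 64.9 and 56.2 with placebo. Its change was 0.37 (interval −0.47 to 1.21), and 0.09 without estrogen array 1. On each of these probe sets estrogen array 1 read highest of the 6 arrays.

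With all arrays the remaining receptors, each by its brightest tested probe set, lay within 0.2 log2 units of 0. GPER1 gave 0.19, the glucocorticoid receptor NR3C1 −0.09, the mineralocorticoid receptor NR3C2 −0.05, the orphan receptors ESRRA and ESRRG 0.04 and 0.05, and the membrane progesterone receptor component PGRMC2 0.19. Leaving out estrogen array 1 gave 0.35 for ESRRG, −0.23 with separated arrays for NR3C2, 0.07 for GPER1 and 0.02 for PGRMC2. For 7 of the 8 receptors tested the interval of the brightest tested probe set lay within 1 log2 unit of 0. The progesterone receptor PGR, a classical estrogen target, read 2.01, 4.56 and 1.05 with estrogen, against 10.5, 0.631 and 1.15 with placebo, and was too dim to test.

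Genes known as estrogen targets in other tissues lay on both sides of 0. Of 19 tested, 8 lay above and 11 below 0, with a median of −0.03, and 1 had an unadjusted p under 0.05. That gene was CXCL12, a chemokine that guides migrating cells and is induced by estrogen in breast cells. It read 245, 82.0 and 39.9 with estrogen, against 192, 187 and 289 with placebo. Estrogen arrays 2 and 3 lay below every placebo array and estrogen array 1 did not. The change was −1.11 (interval −2.12 to −0.09; limma adjusted p = 1.0) and −1.72 without estrogen array 1, but −0.60 without estrogen array 3, where 0 of the 19 genes had an unadjusted p under 0.05. That count was also 0 without placebo array 1. Without estrogen array 1, 6 of the 19 lay above and 13 below 0, with a median of −0.02. In that fit 2 were lower at an unadjusted p under 0.05, against 1.82% of all tested probe sets, and 0 were higher. Separation was met by 5 of the 19 on the lower side, against 10.1% of all tested probe sets, and by 1 on the higher. GREB1, an estrogen receptor cofactor and target, read 88.8, 144 and 96.1 with estrogen, against 187, 162 and 123 with placebo, and gave −0.51 (interval −1.03 to 0.00) and −0.34 without estrogen array 1. MYB, a proto-oncogene, gave 0.31 with estrogen array 1 and 0.00 without it.

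Coregulators of steroid receptors gave 9 above and 6 below 0 of 15 tested, with a median of 0.04, and 0 at an unadjusted p under 0.05. The largest values were 0.63 for SAFB, a corepressor of estrogen receptors, −0.38 for the coactivator RBM14 and −0.33 for the arginine methyltransferase CARM1. All of their intervals spanned 0, and without estrogen array 1 they gave 0.25, −0.18 and −0.04. Enzymes of steroid synthesis and conversion gave 8 above and 2 below 0 of 10, with a median of 0.13. HSD3B2, which makes progesterone, gave 0.42 (interval −0.05 to 0.90) and 0.26 without estrogen array 1, and the tested probe set of CYP19A1, the aromatase that makes estrogen, 0.17 (interval −0.80 to 1.14). A dimmer CYP19A1 probe set, left out by the filter and named after its values were seen, read 84.8, 47.5 and 71.5 with estrogen, against 20.28, 20.4 and 29.8 with placebo. Its arrays were separated, and with no filter its change was 1.21 (limma adjusted p = 0.319), so the probe sets of this gene did not show the same difference.

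The single genes with the smallest p and separated arrays are a description of the extremes among 7535 probe sets, and none passed the threshold. They were taken as the 12 smallest unadjusted p in each direction, where the shares of separated probe sets were 2.84% higher and 3.29% lower. Their log2 changes lay between 0.60 and 1.40 on the higher side and between −1.19 and −0.51 on the lower. Since separated arrays were required, their sign without estrogen array 1 was fixed by the choice. Each also kept an unadjusted p under 0.05 in that fit, which reuses the arrays they were chosen on.

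ADGRE5, the leukocyte adhesion receptor CD97, read 69.9, 73.7 and 93.9 with estrogen, against 35.3, 23.6 and 28.5 with placebo. All 3 estrogen arrays lay above all 3 placebo arrays, and the gap between the groups was wider than the spread within either. The change was 1.16 (interval 0.73 to 1.59; limma adjusted p = 0.571) and 1.30 without estrogen array 1. Leukocyte markers as a list gave 3 of 7 above 0, and their summed intensity was 695 to 1175 with estrogen and 671 to 897 with placebo. The 3 probe sets of PTPRC, the common leukocyte antigen, read at most 38.3 and were too dim to test. The part of leukocytes in the ADGRE5 difference was not tested.

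DMAC2L, a factor linked to the mitochondrial ATP synthase, read 102, 64.0 and 39.6 with estrogen, against 16.7, 16.8 and 22.6 with placebo. The change was 1.40 (interval 0.82 to 1.97; limma adjusted p = 0.719), the highest of the 24 genes. Its 2 other tested probe sets gave −0.27 and −0.05, so the gene was higher on 1 probe set of 3. NIPSNAP1, a mitochondrial protein that takes part in mitophagy, read 591, 667 and 650.3 with estrogen, against 299.6, 344 and 459.8 with placebo, a change of 0.81. It was read by 1 tested probe set.

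Genes of cell division and DNA upkeep were among the higher 12. Cyclin A2 (CCNA2), which drives S phase, read 106, 65.1 and 77.0 with estrogen, against 47.1, 19.9 and 37.4 with placebo, a change of 1.05. RFC4, a subunit of the clamp loader of DNA replication, read 74.2, 91.1 and 76.4 with estrogen, against 36.7, 52.3 and 60.7 with placebo, a change of 0.60. The cell cycle list as a whole did not follow them. Of its 29 tested genes, 15 lay above and 14 below 0, with a median of 0.01, and RFC4 was the 1 member with an unadjusted p under 0.05 (CCNA2 entered by its brighter probe set, at 0.08). MGMT, which repairs alkylated guanine, read 187, 125 and 116 with estrogen, against 39.1, 69.0 and 51.2 with placebo, a change of 1.28, while its other probe set gave −0.25.

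IFIT1, an interferon-induced protein that binds viral RNA, read 345, 424 and 408 with estrogen, against 231, 201 and 248 with placebo. All estrogen arrays lay above all placebo arrays, with a change of 0.76, and the second IFIT1 probe set gave 0.16. Of 12 tested interferon genes, IFIT1 included, 6 lay above and 6 below 0, and without estrogen array 1 this was 3 above and 9 below, with a median of −0.13. IFI44L gave 0.88 with placebo array 1, which read 9.54, and 0.26 without it. ASIP, the agouti protein that blocks melanocortin receptors, read 77.4, 65.1 and 64.9 with estrogen, against 19.4, 40.8 and 25.4 with placebo, a change of 1.09.

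NEUROD2, a transcription factor of neuronal differentiation, read 185, 308 and 211 with estrogen, against 138, 117 and 123 with placebo, a change of 0.81. The highest reading came from estrogen array 2. The remaining genes on the higher side were TCP10L3 at 1.11, STARD8 at 0.83, and LYST, a regulator of lysosome traffic, at 0.71. The plot of the 24 genes by array shows the distances.

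COL11A2, a chain of type XI collagen, was the gene on the lower side with the smallest p. It read 207, 303 and 242 with estrogen, against 366, 438 and 478 with placebo, a change of −0.76 (interval −1.18 to −0.33; limma adjusted p = 1.0). A second COL11A2 probe set was also separated, at 33.6, 141 and 71.8 with estrogen, against 179.7, 179.9 and 165 with placebo, and gave −1.24. Without estrogen array 1 the first probe set gave −0.61 and the second −0.70. The third gave −0.32 and was not separated, with placebo array 1 at 139 the lowest of its 6 readings. COL11A2 was the only one of the 24 genes with a second separated probe set, among 7 that had other tested probe sets.

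TWF1, twinfilin, which binds actin monomers, read 85.3, 78.1 and 79.8 with estrogen, against 141, 125 and 119.5 with placebo. The estrogen arrays lay within a narrow range below all placebo arrays, and the change was −0.63 (interval −1.0 to −0.27) and −0.61 without estrogen array 1. In the list of actin and dendritic spine genes, 12 of 26 lay above and 14 below 0, and besides TWF1 only LIMK1, the kinase that inactivates cofilin, had an unadjusted p under 0.05. LIMK1 read 168, 129 and 86.5 with estrogen, against 64.0, 61.8 and 95.9 with placebo, a change of 0.69 with overlapping arrays.

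CCT4, a subunit of the chaperonin that folds actin and tubulin, read 158, 135 and 161 with estrogen, against 281, 288 and 219 with placebo, a change of −0.76. Of 22 chaperone genes, 16 lay below 0, against 50.8% of all tested probe sets, with a median of −0.10. CCT4 was the 1 member with an unadjusted p under 0.05. Without estrogen array 1, 13 of the 22 lay below 0, with a median of −0.06. In that fit 2 were lower at an unadjusted p under 0.05, against 1.82% of all tested probe sets. GHRH, growth hormone releasing hormone, read 38.8, 70.0 and 59.6 with estrogen, against 91.5, 106 and 98.3 with placebo, a change of −0.80, and −0.51 without estrogen array 1. PRNP, the prion protein, read 518, 743 and 512 with estrogen, against 1317, 747 and 989 with placebo, a change of −0.74. Estrogen array 2 and placebo array 2 of PRNP differed by less than 1%, so its separation was narrow.

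The change of SLC12A4, a potassium-chloride cotransporter, was −1.12, but its separation held only after normalization. It read 57.8, 40.1 and 44.1 with estrogen, against 149, 155 and 56.9 with placebo, so as deposited estrogen array 1 lay just above placebo array 3. Its 2 other tested probe sets gave 0.01 and −0.12. MYOD1, the transcription factor of skeletal muscle, read 16.6, 23.0 and 35.6 with estrogen, against 56.3, 58.3 and 76.0 with placebo, a change of −1.19. These intensities are low, and MYOD1 is known mainly from muscle. POU3F2, a POU-domain transcription factor of neurons, read 95.1, 88.0 and 84.7 with estrogen, against 141, 123 and 124 with placebo, a change of −0.51.

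The remaining genes on the lower side were RABL3, a small GTPase, at −0.89, ARMCX6 at −0.74, the chondroitin sulfotransferase CHST3 at −0.64, and RCVRN, the calcium sensor recoverin of photoreceptors, at −0.78. RCVRN read 130.5, 151 and 103 with estrogen, against 205, 308 and 172 with placebo. Of the 24 genes, 7 had 10 other tested probe sets between them, of which 6 had the same sign and 1 was separated.

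**Figure D3:**
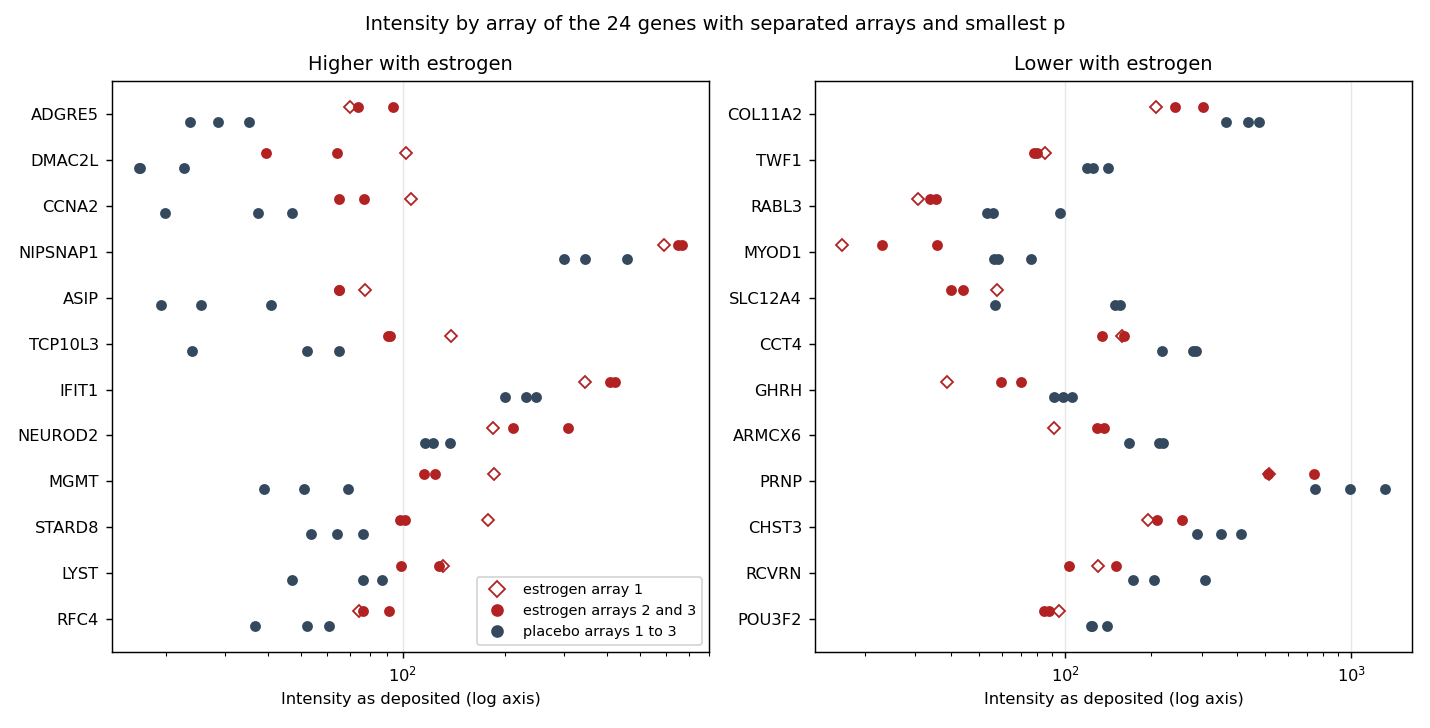
Deposited intensity on a log axis of the 24 genes with separated arrays and the smallest unadjusted p, 12 higher and 12 lower with estrogen. Diamonds are estrogen array 1, red points estrogen arrays 2 and 3, dark points the placebo arrays; for SLC12A4 estrogen array 1, at 57.8, overlaps placebo array 3, at 56.9.

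Genes with several probe sets that all separated the groups were rare. Of 934 genes with 2 or more tested probe sets, 2 had every probe set separated in 1 direction, both lower with estrogen, and 0 had every probe set higher. PARVB, a focal adhesion protein that binds integrin-linked kinase, read 316, 256 and 237 with estrogen, against 424, 371 and 327 with placebo on 1 probe set, a change of −0.45. Its second probe set gave −0.34, and there estrogen array 2, at 194, lay above placebo array 1, at 189, as deposited. HHLA1 gave −0.54 and −0.41. For 3 genes, PCYT1B, PPP1R3C and RUVBL1, probe sets separated the groups in opposite directions; RUVBL1, an ATPase of chromatin remodelling complexes, gave 0.79 and −0.42.

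Leaving out estrogen array 1 brought other genes forward. With 2 estrogen arrays, separation is easier to reach, and it was met by 1514 probe sets (20.1%), of which 758 were lower (10.1%). Besides MAOA, the 6 genes of smallest p on the higher side held INSIG2, the sterol sensor that keeps cholesterol synthesis in check. INSIG2 read 230.0, 392 and 442 with estrogen, against 186, 256 and 164 with placebo, a change of 1.03 without estrogen array 1 and 0.75 with it. A probe set of GNB3, a G-protein beta subunit, gave 1.37 without and 0.93 with that array, and one of CEP170B, a microtubule-binding protein, 1.02 and 0.64. Other tested probe sets of GNB3 gave 0.19 without and 0.14 with that array, and 0.32 and 0.21. A brighter CEP170B probe set gave 0.04 and 0.01, so the probe sets of these genes did not show the same difference. These genes kept their direction in both fits, which share estrogen arrays 2 and 3 and the placebo arrays, so this is no separate support. The limma unadjusted p was 0.051 for MAOA and 0.069 for INSIG2 without estrogen array 3, and 0.10 for GNB3 without estrogen array 2.

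For other genes of that group the direction or the size depended on estrogen array 1. TRIM9, a ubiquitin ligase of neurons, read 23.2, 172 and 126 with estrogen, against 89.5, 86.0 and 74.4 with placebo, so its change was 0.78 without estrogen array 1 and −0.09 with it. ZHX3, a transcriptional repressor, gave 0.79 without and 0.33 with that array. On the lower side, HOMER2, a scaffold of metabotropic glutamate receptors, read 162, 33.1 and 78.0 with estrogen, against 116, 138 and 156 with placebo, and gave −1.21 without and −0.75 with it. A probe set of INPP4A, a phosphoinositide phosphatase, gave −1.08 and −0.50, while its other tested probe sets gave −0.11, 0.35 and 0.46 with all arrays. The nucleotide excision repair helicase ERCC3 gave −0.74 and −0.50, FNDC3A −0.69 and −0.53, and a probe set of PTGDS, prostaglandin D synthase, −0.66 and −0.24. Other arrays moved these genes as well: INPP4A gave −0.08 without estrogen array 3, HOMER2 −0.26 and ZHX3 0.05 without estrogen array 2, and CEP170B 0.33 and ERCC3 −0.31 without estrogen array 3.

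The probe sets that estrogen array 1 moved most show how far 1 array shifted a mean of 3. BAX, which opens the mitochondrial membrane in apoptosis, read 2395, 433 and 385 with estrogen on 1 probe set, against 583, 510.2 and 611 with placebo. Its change was 0.40 with estrogen array 1 and −0.46 without it. On this probe set estrogen plus progesterone array 1 also read high, at 2044, against 479.9 and 621 on the other arrays of that group. A probe set of ARHGAP1 gave 0.65 and −0.31, one of CYP2A13 0.64 and −0.24, one of PURA 0.60 and −0.19, and one of BMPR1B −0.09 and −0.92. In the other direction TYRO3, a receptor tyrosine kinase, read 57.3, 422 and 405 with estrogen, against 432, 371 and 359 with placebo, a change of −0.84 with and 0.10 without estrogen array 1. ITGA7 gave −0.72 and 0.23, AKAP17A −0.65 and 0.33, the actin branching subunit ARPC4 −0.33 and 0.63, and the transporter ABCB6 −0.24 and 0.71. None of these 10 probe sets differed at an unadjusted p under 0.05 in either fit. Other tested probe sets of ARHGAP1 gave −0.13 with and −0.13 without estrogen array 1, −0.33 and −0.24, and −0.19 and 0.02. Those of CYP2A13 gave 0.17 and 0.35, of AKAP17A 0.33 and 0.27, of ARPC4 −0.28 and −0.18, and of ABCB6 −0.19 and −0.25. The probe sets of these genes therefore did not show the same shift.

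**Figure D4:**
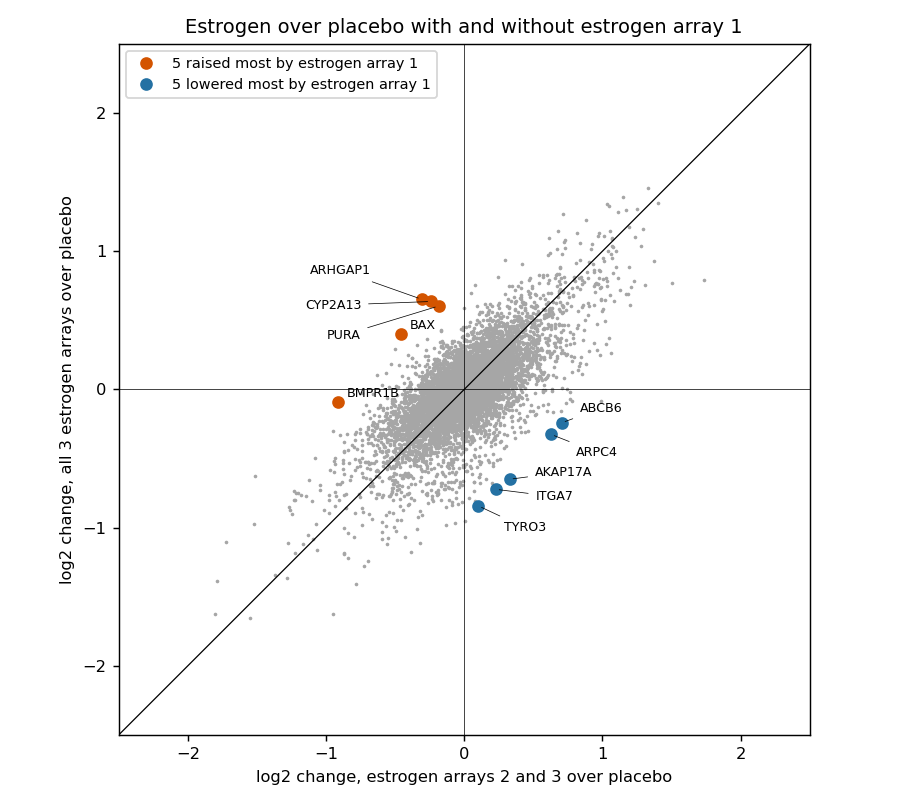
Log2 change, estrogen over placebo, with all 3 estrogen arrays (vertical axis) against that with estrogen arrays 2 and 3 only (horizontal axis), for 7535 tested probe sets. The line marks equal values. Orange and blue points are the 10 probe sets that estrogen array 1 moved most, such as one of BAX at 0.40 and −0.46.

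The list of neuropeptide genes gave values in both directions. Of 13 tested genes, 6 lay above and 7 below 0, with a median of −0.24. An unadjusted p under 0.05 was reached by 2 of the 13, against 3.16% of all tested probe sets. The median was −0.06 without placebo array 1, and 0.07 over all 15 tested probe sets of the list, so its sign depended on which probe sets were counted. The 2 genes with an unadjusted p under 0.05 were GHRH, described above, and GAST. Gastrin (GAST) read 113, 69.3 and 94.2 with estrogen, against 39.1, 32.9 and 46.7 with placebo, a change of 1.02 (interval 0.26 to 1.78). CCK, cholecystokinin, was separated on the lower side, at 122, 84.2 and 122 with estrogen, against 138, 174 and 152 with placebo, a change of −0.50 (interval −1.0 to 0.00). CARTPT, the precursor of the CART peptides, was named after its values were seen: it read 24.2, 13.6 and 35.3 with estrogen, against 295, 41.0 and 51.9 with placebo, a change of −1.65 (interval −3.52 to 0.21), with the highest reading on placebo array 1. Among opioid genes 1 of 6 lay above 0, and the dynorphin precursor PDYN gave −0.26 (interval −0.99 to 0.48). Of the 6 genes, 3 lay above 0 without estrogen array 1, with a median of 0.03, and PDYN gave −0.0007. Without placebo array 1 PDYN gave 0.006.

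Placebo array 1 decided some values of the transmitter genes. SLC1A2, the main glutamate transporter of astrocytes, read 4924, 3619 and 3373 with estrogen, against 293, 3990.5 and 4244 with placebo, and its change of 1.13 became −0.13 without placebo array 1. GABRA3, a subunit of the GABA-A receptor, read 109, 201 and 146 with estrogen, against 6.77, 140.4 and 181 with placebo, and its 1.04 became −0.11. Of 13 GABA genes, 10 lay above 0, but 6 without placebo array 1. Of 20 glutamate genes 12 lay above 0, with a median of 0.09, and without placebo array 1 this was 7, with a median of −0.14. GRM3, a metabotropic receptor, gave −0.45 (interval −0.94 to 0.05) and −0.23 without placebo array 1.

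Lists of cell metabolism and stress held few genes past the unadjusted threshold. Among 26 proteasome subunits 20 lay above 0, with a median of 0.06 and a count of 11 without placebo array 2. The ATPase subunit PSMC2 read 356, 265 and 369.9 with estrogen, against 229, 234 and 261 with placebo, a change of 0.42 (interval 0.05 to 0.79). DUSP1, an immediate early phosphatase, read 146, 206 and 209 with estrogen, against 218, 377 and 295 with placebo, a change of −0.64, and 7 of 16 immediate early genes lay above 0. BIRC2, an inhibitor of apoptosis, gave −0.92, and −0.34 without estrogen array 1, which read 30.1. IDI1, an isomerase of cholesterol synthesis, gave −0.56 in a list where 8 of 14 lay above 0. Over the 30 pathway lists, 13 of 502 tested genes (2.59%) had an unadjusted p under 0.05, near the 3.16% of all probe sets, and 0 passed the adjusted threshold.

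Markers of other cell types and regions were set beside these values. Of 14 tested cerebellar genes 13 lay above 0 with estrogen, with a median of 0.25, against 49.2% above 0 over all tested probe sets. An unadjusted p under 0.05 on the higher side was reached by 3 of the 14, against 1.62% of all tested probe sets. They were NEUROD2, at 0.81, ZIC1, a transcription factor of cerebellar granule cells, at 1.10 (0.57 without estrogen array 2), and FAT2, a cadherin of those cells, at 0.86 (0.47 without placebo array 2). ZIC1 read 183, 462 and 112 with estrogen, against 105, 92.8 and 83.8 with placebo. FAT2 read 174, 212 and 219 with estrogen, against 159, 58.5 and 124 with placebo. Both genes were separated, and in ZIC1 and NEUROD2 the highest reading was on estrogen array 2. The summed intensity of the list was 7045 to 8168 with estrogen and 6168 to 7059 with placebo. GABRA6, a defining receptor subunit of granule cells, read at most 19.5, on estrogen array 2, and was too dim to test. Without estrogen array 2, 10 of 14 lay above 0 and the median was 0.15; without estrogen array 1 these were 12 and 0.28, and without placebo array 2 an unadjusted p under 0.05 was left for 1 of the 14. How much cerebellar tissue entered the samples was not tested.

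Oligodendrocyte genes lay below 0 for 8 of 10, with a median of −0.15. This was 9 of 10 without estrogen array 1, with a median of −0.29. In that fit 5 of 10 were separated on the lower side, against 10.1% of all tested probe sets, and 0 had an unadjusted p under 0.05. With all arrays 1 of 10 was separated on the lower side, against 3.29% of all tested probe sets. The count below 0 was 5 of 10 without estrogen array 2 and also without placebo array 1. MBP, the myelin basic protein, read 7393, 6326 and 6783 with estrogen, against 7824, 7254 and 7302 with placebo, a change of −0.17 (interval −0.50 to 0.17). Microglia and macrophage genes lay below 0 for 7 of 10, with a median of −0.13, and their summed intensity was 1675 to 1763 with estrogen and 1765 to 2265 with placebo. CX3CR1, the fractalkine receptor of microglia, read 265, 241 and 253 with estrogen, against 402, 279 and 376 with placebo, a change of −0.44 (interval −0.94 to 0.06). Without placebo array 1 the microglia median was 0.04.

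The other marker lists stayed close to 0 or rested on few genes. Neuron markers gave 8 of 11 above 0, with a median of 0.11, and astrocyte markers 7 of 12, with a median of 0.05. Meningeal markers gave 5 of 6 above 0, with a median of 0.24 and 0.01 without estrogen array 1. In that list SLC6A13, a GABA transporter of the leptomeninges, read 93.5, 56.0 and 151 with estrogen, against 30.6, 44.9 and 46.8 with placebo, a change of 1.03 (interval 0.29 to 1.77). Endothelial and pericyte markers gave 5 of 9 above 0, and FLT1, a VEGF receptor, gave 0.75 with and 0.39 without estrogen array 1, which read 275. Over the 14 marker lists, 5 of 108 tested genes (4.63%) had an unadjusted p under 0.05, against 3.16% of all probe sets.

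**Figure D5:**
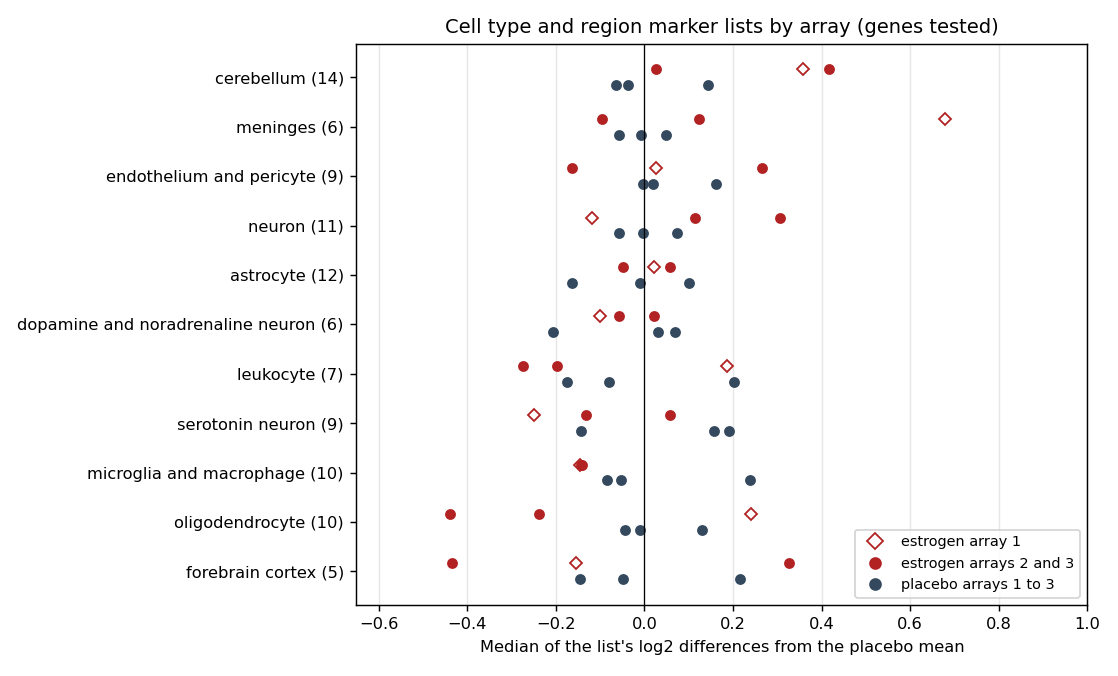
Median log2 difference from the placebo mean, by array, for the 11 marker lists with 5 or more tested genes (number in brackets). Diamonds are estrogen array 1, red points estrogen arrays 2 and 3, dark points the placebo arrays; for cerebellum estrogen arrays 1 and 2 lie at 0.36 and 0.42, while estrogen array 3, at 0.03, lies within the placebo range.

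Estrogen alone was also set against estrogen plus progesterone, and the interaction of the 2 hormones was tested, in the same fit. These comparisons share the estrogen or placebo arrays with the one above, so their values are given side by side only. The limma fit called 0 probe sets for estrogen against estrogen plus progesterone (0%), with 216 (2.87%) at an unadjusted p under 0.05, and 0 for the interaction (0%), with 376 (4.99%). ADGRE5 read 69.9, 73.7 and 93.9 with estrogen and 98.9, 93.0 and 86.6 with both hormones, a log2 difference of −0.21, estrogen over both. MAOA read 402, 559 and 799 with estrogen and 309, 318 and 407 with both, a difference of 0.70. CCNA2 read 106, 65.1 and 77.0 with estrogen and 45.2, 54.8 and 46.8 with both, a difference of 0.69. COL11A2 read 207, 303 and 242 with estrogen and 386, 358 and 361 with both, a difference of −0.56. Among the 24 genes the lowest limma adjusted p was 1.0 for this difference and 0.585 for the interaction.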

How the data were processed

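Total RNA of 12 dorsal raphe samples was extracted, labelled with biotin and hybridized to a human Affymetrix array, per the labels' protocols. The deposited value of a probe set is a linear intensity; from the values, the authors scaled every array to a trimmed mean of 200.07 to 200.08, and the summary method is not given in the sources used here. Progesterone arrays carry EP codes in their titles and P codes in their source names, and were grouped by source name. Of 12558 probe sets other than 67 controls, 10943 have 1 gene symbol in the platform's probe table, 545 several and 1070 none; probe sets with several or none were not named.

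Intensities were offset by 8.26 (the pooled 10th percentile), converted to log2 and quantile normalized, and the lowest 40% by mean were left out. limma 3.58.1 (R 4.3.3; lmFit and eBayes, 12 arrays, 2-sided, Benjamini-Hochberg) gave changes, intervals and p-values, and was tested on simulated data. Genes were named by rule: the 12 smallest p per direction with separated arrays, 6 per direction without estrogen array 1, the 5 per direction that this array moved most, genes whose tested probe sets were all separated, all serotonin and steroid receptor genes, and up to 3 per other list. Each gene entered a list with its brightest probe set. The comparison, the lists and the rule were chosen with earlier results of these data known. Same-numbered estrogen and placebo arrays did not deviate together (correlations 0.04, 0.02 and −0.05), so numbers were not used as pairs. Array 1 of each group still held its largest share of probe sets at least 1 log2 unit off both mates. That share was 7.42% with estrogen, 3.82% with placebo, 4.29% with both hormones and 2.28% with progesterone. With 3 arrays per group, their number limits the precision.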

Additional observations from a re-analysis of the deposited data

Results flagged for a closer look

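Signals appeared in the control probe sets, which entered no test, above their level with placebo. For 28S ribosomal RNA the control reached 841 on estrogen array 1, against 70.0 to 90.8 with placebo. The bacterial and phage spike-in controls summed to 49610 on estrogen array 1, against 15301 to 29731 with placebo. The part of these signals in the differences between estrogen and placebo was not tested. On this array 408 tested probe sets lay at least 1 log2 unit below both other estrogen arrays, and 74 of them (18.1%) also lay as far below on estrogen plus progesterone array 1, where 247 did so (30.0% shared).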

How the results depend on the processing

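The count of probe sets past the adjusted threshold for estrogen against placebo was 0 in all 18 alternatives, with a lowest limma adjusted p between 0.0553 (array weights) and 1.0 (lowest 60% left out). The count at an unadjusted p under 0.05, 238 as reported, was 430 without the filter, 130 with the lowest 60% left out, 390 with array weights, 383 when estrogen array 1 and estrogen plus progesterone array 1 were both left out, and 202 to 333 when 1 estrogen or placebo array was left out. The share of separated probe sets, 6.13% as reported, was 20.1% when those 2 arrays were left out and 13.8% to 20.1% when 1 array was left out, since fewer arrays separate more easily. Estrogen against estrogen plus progesterone gave 0 to 2 calls when 1 array was left out, the 2 being GNB2 and STK39 without estrogen array 2. The interaction gave 1 call without the filter (a probe set with no symbol), 2 with array weights (KIFC1 and LPCAT4), and 0 to 1 when 1 array was left out (SLC12A4 without placebo array 3). Causes were not tested. With the replicate number as a block 0 were called, and an unadjusted p under 0.05 was reached by 250 over all arrays and 204 over the 6 arrays, and the block changed no other call. Of the 24 genes of smallest p, which were chosen for it, 23 kept an unadjusted p under 0.05 in every alternative that tested them, and POU3F2 lost it in the block of 6 arrays. TRIM9 ranged from −0.61 to 0.78 and the PTGDS probe set from −0.66 to 0.01. Leaving out arrays other than estrogen array 1 for the gene lists was chosen after seeing the data. Dim probe sets had the widest intervals.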

Other observations

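Of the gene groups not described above, 0 members passed the adjusted threshold of the limma fit. Ribosomal protein genes gave 23 above and 22 below 0 of 45 tested, with a median of 0.00, and 16 above 0 without estrogen array 1. Genes of oxidative phosphorylation gave 24 above and 25 below 0 of 49, and those of glycolysis and the citric acid cycle 16 above and 11 below of 27. The synaptic vesicle list gave 8 of 16 above 0, where SYN2, a synapsin that tethers vesicles, was separated on the lower side at −0.44 (interval −1.03 to 0.16). Catecholamine genes gave 7 of 10 above 0, where DRD2, the D2 dopamine receptor, read 508, 368 and 413 with estrogen, against 311, 314 and 403 with placebo, a change of 0.33 (interval −0.06 to 0.72). Without placebo array 1 these counts were 4 of 16 and 5 of 10. Acetylcholine genes gave 1 of 7 above 0, with a median of −0.11, and 0 of 7 without estrogen array 1. Genes of stress peptides and their receptors gave 3 of 6 above 0, antioxidant enzymes 6 of 16, neurotrophins and growth factors 11 of 22, apoptosis genes 13 of 22, and cytokines and their receptors 8 of 17.

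Of the smaller marker lists, dopamine and noradrenaline neurons gave 3 of 6 above 0, motor neurons 3 of 4, and blood 1 of 2. Forebrain cortex gave 2 of 5, with a median of −0.28, the lowest of all lists, −0.35 without estrogen array 1 and −0.07 without placebo array 3. Ependyma and choroid plexus gave 0 of 3, with a median of −0.26 and −0.13 without estrogen array 1. The dopamine transporter SLC6A3 read at most 44.9, on placebo array 1, and the choroid plexus protein TTR at most 55.2, on estrogen array 2; both were too dim to test. Serotonin neuron markers gave 4 of 9 above 0, with a median of −0.05.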
